A study of Mus musculus with 4 samples.

Results

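The genes described here encode the m6A methyltransferase complex, together with Mettl16, a separate m6A methyltransferase. They were taken by symbol from the deposited gene table, and all 9 were found among its 55426 rows. All 9 also passed the filter on low values. The libraries were poly(A)-selected mouse RNA from retinal organoids, which are aggregates of stem cells grown towards retinal progenitors, at day 6 of differentiation. By their genotype label all 4 libraries came from a Mettl3 knockout line with an Rx:GFP reporter and an HA-tagged METTL3 under doxycycline (Dox) control, grown with 0.1 µM AGN. The 2 untreated libraries had no Dox, and the 2 Dox libraries had 2 µg/ml for 6 days. There was no library from cells with an intact Mettl3 gene, so both groups share the knockout. The genotype label thus names the inducible METTL3, but the titles carry the letters EV, which the labels do not explain. Whether EV marks a control vector, in place of that copy or beside it, is not stated. It is not stated whether the line is 1 clone, what sequence the inducible copy has, or whether the duplicates were separate cultures. P-values therefore measure the spread between these samples, which may be technical.

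N6-methyladenosine, or m6A, is the most common internal mark on mammalian mRNA and is best known for shortening the life of the transcripts that carry it. METTL3 is the catalytic subunit and forms a dimer with METTL14, which holds the RNA. A larger set of regulatory proteins, WTAP, VIRMA, RBM15 or RBM15B, ZC3H13 and the E3 ligase HAKAI (gene Cbll1), places the dimer in the nucleus and on its RNA targets. METTL16 acts alone on structured RNAs, above all U6 snRNA and the mRNA of Mat2a, which encodes the enzyme that makes the methyl donor S-adenosylmethionine.

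The best known mRNA substrate of METTL16 was read directly from the reference transcript, because it connects a member of the set with a transcript measured in the same libraries. The nonamers TACAGAGAA and TACAGAAAA, which hold the adenosine that METTL16 methylates, were searched for on the mRNA strand of annotated 3′ UTRs of tested genes. The Mat2a transcript ENSMUST00000059472.9 held 6 matches. Of 11421 UTRs searched, 3.97% held at least 1 match, and Mat2a was the 1 UTR with 6 or more. Mat2a was picked as a known substrate and the nonamers as known METTL16 sites, so its rank is not independent evidence. The matches are shown 5′ to 3′ with the nonamer in capitals and T for U, on the minus strand of GRCm38.
Mat2a match at chr6:72434235-72434263: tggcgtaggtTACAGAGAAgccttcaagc
Mat2a match at chr6:72433451-72433479: ccttgtgataTACAGAGAAgtcacagggc
Mat2a match at chr6:72433272-72433300: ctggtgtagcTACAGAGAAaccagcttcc
Mat2a match at chr6:72433157-72433185: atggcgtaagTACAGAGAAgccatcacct
Mat2a match at chr6:72433046-72433074: caaggtgtccTACAGAAAAaccttgggtt
Mat2a match at chr6:72432938-72432966: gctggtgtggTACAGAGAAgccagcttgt
A match describes the letters only and does not show that a site was methylated here.

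The groups differ widely in what the organoids express, and this stands beside every comparison below. The eGFP reporter row went from 0.26 and 0.42 FPKM without Dox to 333.52 and 361.13 FPKM with it. Rax, the eye-field gene also called Rx, was at 1.12 and 0.82 FPKM without Dox, so the defining marker of the labelled tissue was nearly absent there. The summed level of 6 retinal progenitor markers was 151.1 to 163.3 FPKM without Dox and 790.2 to 917.9 FPKM with Dox. In contrast, 7 markers of the dorsal forebrain midline summed to 280.8 to 287.5 FPKM without Dox and 16.87 to 18.7 FPKM with it, and 7 neuronal markers to 151.2 to 154.5 and 82.37 to 86.3 FPKM. The 6 pigment epithelium markers summed to 2.33 to 2.48 and 61.23 to 61.87 FPKM. The 6 pluripotency markers summed to 67.41 to 70.35 and 49.95 to 72.91 FPKM, with overlapping groups. Of the markers tested, 5 of 6 retinal progenitor and 3 of 3 pigment epithelium genes were called higher, 6 of 6 midline, 6 of 6 neuronal and 1 of 6 pluripotency genes were called lower, and none was called the other way. No marker of these lists was at 0 in all 4 libraries, but some were too low to be tested. In the pigment list these were Tyr, Tyrp1 and Rpe65, at no more than 0.64 FPKM in any library. Dcx of the neuronal and Wnt3a of the midline list were also not tested. Single genes made up most of some sums. With Dox, most of the pigment sum was Pmel, at 39.27 and 39.93 FPKM. Without Dox, most of the retinal progenitor sum was Pax6, at 127.76 and 118.86 FPKM. Pax6 was at 122.8 and 130.69 FPKM with Dox and was not called. Most of the neuronal sum in each library was Tubb3, at 118.53 and 116.78 FPKM without Dox and 75.76 and 79.83 FPKM with Dox. The part of the marker shifts in the members' values was not tested. In bulk RNA, fewer cells of a type and less RNA per cell cannot be told apart. Depth, recovered from the steps between low values, was 31750000 to 34950000 fragments per library.

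None of the 9 genes passed the test between Dox and untreated organoids. In limma, which was fitted to log2(FPKM + 1) of all tested genes, 9.31% of 13931 genes were called at an adjusted p below 0.05, and 0 of the 9 members were. By direction, 4.44% of all tested genes were called higher with Dox and 4.87% lower, and again 0 members. At an unadjusted p below 0.05 there was 1 member higher with Dox, Mettl3, and 1 lower, Rbm15, and 23.9% of all tested genes stood below this value. The median log2 fold change of the members was -0.001, beside -0.004 over all tested genes, and their median absolute log2 fold change was 0.12, beside 0.13. Both Dox libraries lay outside the range of both untreated libraries for 5 of the 9 members, 2 above and 3 below, and this held for 53.4% of all tested genes. With 2 libraries a group, the smallest two-sided exact permutation p of a single gene is 0.333. Among the 6443 tested genes in the members' range of mean level, 7.4% were called, with a median absolute log2 fold change of 0.666. The smallest called change was 0.29, which is not a detection limit, since Rbm15 at -0.38 was not called.

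**Figure D1:**
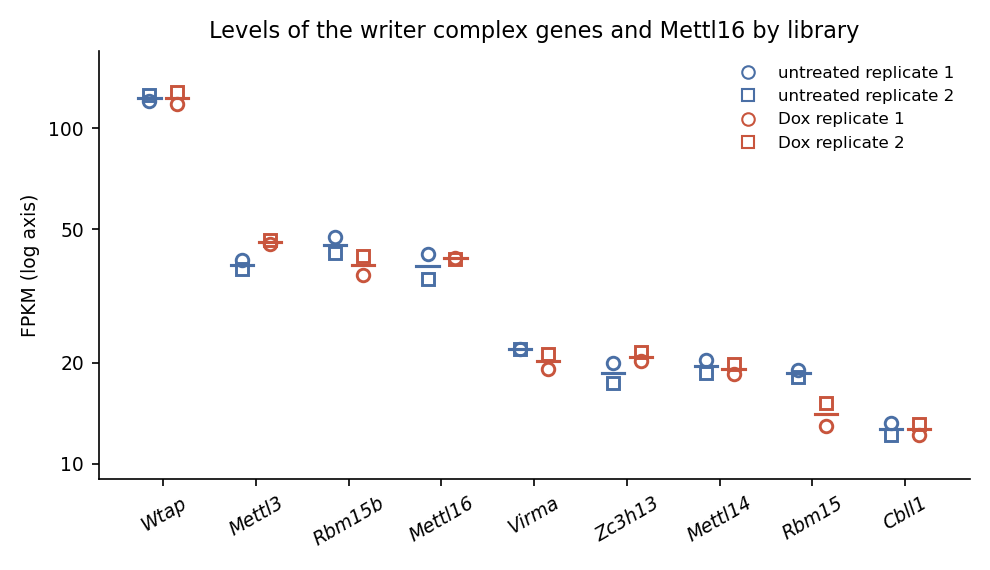
FPKM of the 9 genes in each library on a log axis, ordered by their mean, with untreated libraries in blue, Dox libraries in red and a line at each group mean. Wtap stands above the rest at 118.06 to 128.25 FPKM, and the groups lie apart most clearly for Mettl3 and Rbm15.

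The levels of the 9 genes spread around a clear top gene, Wtap. FPKM is scaled to length, so levels are set side by side between genes here, as approximate values. Which transcripts were used was not measured, and reads from shared exons were not separated. Wtap was highest at a mean of 123 FPKM, above 93.0% of the tested genes. Its lowest library, at 118.06 FPKM, exceeded the highest value of Mettl3, the next gene, at 46.37 FPKM. Mettl3, Rbm15b and Mettl16 followed with means of 42.5, 41.9 and 39.9 FPKM, and their ranges overlapped, so their order is not resolved. A gap followed between Mettl16, at no less than 35.6 FPKM, and Virma, at no more than 21.99 FPKM. Virma, Zc3h13 and Mettl14 had means of 21.1, 19.7 and 19.4 FPKM with overlapping ranges. Rbm15 came next with a mean of 16.3 FPKM, and it was below Mettl14 in all 4 libraries although their ranges overlapped. Cbll1 was lowest with a mean of 12.7 FPKM, which is above 46.7% of the tested genes, and lay below Rbm15 in all 4 libraries. In each library its value still stood for at least 387 fragments per kb of transcript, a counting error of about 5.09% per kb. Together the 9 genes summed to 344.49 and 329.62 FPKM untreated and to 323.78 and 347.6 FPKM with Dox, with overlapping groups.

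Mettl3 (ENSMUSG00000022160, chr14:52294841-52305128, minus strand) is the gene targeted in the line. Its untreated values were 40.33 and 37.98 FPKM, and its Dox values 45.2 and 46.37 FPKM. Transcript of the gene was thus listed at a substantial level in every library of the knockout line, and both Dox values lay above both untreated values. The log2 fold change was 0.22 (SE 0.0681, 95% interval 0.05 to 0.39, adjusted p = 0.122 in limma), a 1.17-fold difference with an interval of 1.04 to 1.31. Gene-level values do not separate the knocked-out locus from an inducible copy. The genotype label names that copy, and what the letters EV in the titles mean for it is not stated. The exons of Tox4, a gene on the plus strand, share 933 bases with those of Mettl3, 18.4% of its exonic bases, and whether reads were counted by strand is not given in the sources used here. Tox4 was at 18.77 and 19.86 FPKM untreated and at 20.01 and 19.08 FPKM with Dox, with overlapping groups and a log2 fold change of 0.02 (95% interval -0.18 to 0.21).

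Mettl14 (ENSMUSG00000028114, chr3:123368297-123386108, minus strand), the RNA-binding partner of METTL3, was at 20.41 and 18.65 FPKM untreated and at 18.52 and 19.86 FPKM with Dox. The groups overlapped, and the log2 fold change was -0.02 with a 95% interval of -0.24 to 0.19 (adjusted p = 0.898 in limma). The interval leaves room for a fold between 0.849 and 1.14. The FPKM of Mettl3 over that of Mettl14 was 1.98 and 2.04 in the untreated libraries and 2.44 and 2.33 in the Dox libraries. The value listed for Mettl3 therefore stood at about 2.01 ± 0.0428 times that of Mettl14 without Dox and 2.39 ± 0.0748 times with Dox (SD, n = 2 each). The Mettl3 value may mix transcript of the knocked-out locus with that of an inducible copy, so this is not a ratio of working subunits. The difference of 0.25 in the log2 ratio was larger than the spread within either group, and its exact two-sided permutation p was 0.333, the lowest this design can give.

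**Figure D2:**
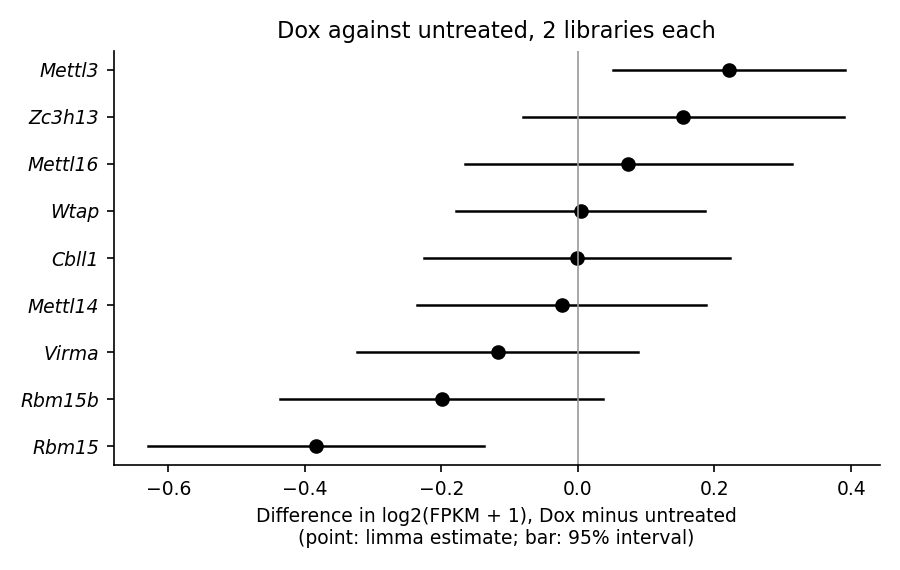
Difference in log2(FPKM + 1) between Dox and untreated libraries for each gene, with the limma estimate as a point and its 95% interval as a bar (2 libraries per group). The intervals of Mettl3 and Rbm15 lie to either side of 0, and those of the other 7 genes include it; none of the 9 passed adjustment over all tested genes.

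Wtap and Virma are the adaptors that hold the regulatory part together. Wtap (ENSMUSG00000060475, chr17:12966796-12994169, minus strand), which brings the dimer to nuclear speckles, was at 120.06 and 125.43 FPKM untreated and at 118.06 and 128.25 FPKM with Dox. The Dox libraries lay on both sides of the untreated ones, with a log2 fold change of 0.004 (95% interval -0.18 to 0.19). Virma (ENSMUSG00000040720, chr4:11485958-11550684, plus strand), the large scaffold that guides methylation towards the 3′ end of transcripts, was at 21.99 and 21.9 FPKM untreated. It was at 19.1 and 21.26 FPKM with Dox, both below the untreated values, with a log2 fold change of -0.12 (95% interval -0.32 to 0.09, adjusted p = 0.457 in limma) that ranged from -0.19 to -0.044 with single libraries left out. The level of Wtap was 5.46 to 5.73 times that of Virma without Dox and 6.03 to 6.18 times with Dox.

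The RNA-binding pair Rbm15 and Rbm15b, paralogs that recruit the complex to particular RNAs including Xist, had the lowest fold changes of the set. Rbm15 (ENSMUSG00000048109, chr3:107325421-107333673, minus strand) was at 19.04 and 18.16 FPKM untreated and at 12.98 and 15.15 FPKM with Dox. The groups were well apart, and the difference of 0.77-fold (interval 0.647 to 0.91) was the largest of the 9 genes on the log2 scale, at -0.38 (SE 0.0984). It did not pass the threshold (unadjusted p = 0.00955, adjusted p = 0.0792 in limma), and its absolute size was above that of 84.7% of the tested genes. Rbm15b (ENSMUSG00000074102, chr9:106880918-106887428, minus strand) was at 47.29 and 42.42 FPKM untreated and at 36.47 and 41.44 FPKM with Dox. Both Dox values were below both untreated values by a narrow margin, with a log2 fold change of -0.20 (95% interval -0.44 to 0.04, adjusted p = 0.279 in limma) that ranged from -0.29 to -0.11 with single libraries left out. The FPKM of Rbm15b was 2.48 and 2.34 times that of Rbm15 without Dox and 2.81 and 2.74 times with Dox (exact permutation p = 0.333). Rbm15b is annotated with a single exon, which shares 75 bases with Dcaf1 on the plus strand and 14 bases with Manf on its own strand. Dcaf1 was at 25.55 and 31.25 FPKM untreated and at 29.11 and 23.43 FPKM with Dox. Manf was at 360.12 and 394.35 FPKM untreated and at 450.11 and 419.59 FPKM with Dox. The part of reads from shared bases in the values of Rbm15b was not tested.

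**Figure D3:**
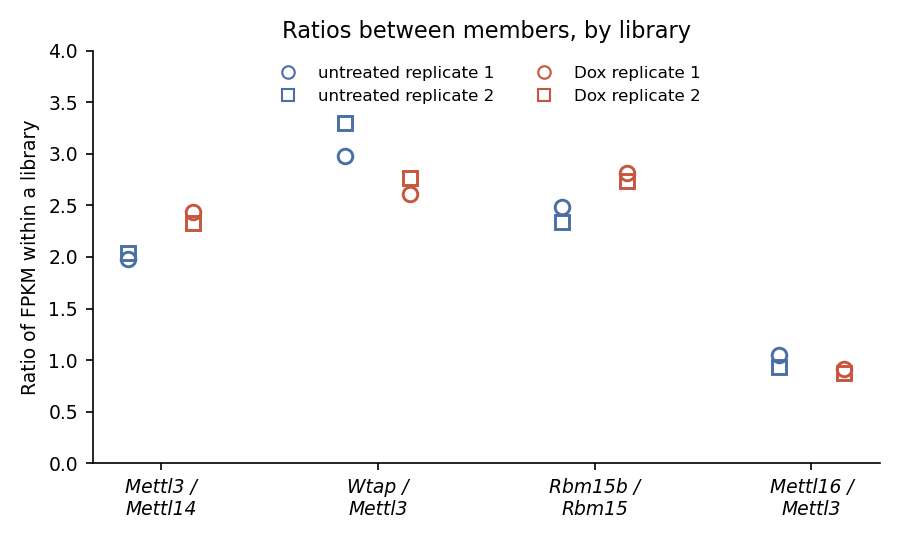
Ratio of the FPKM of member pairs within each library, on a linear axis from 0, with untreated libraries in blue and Dox libraries in red. Mettl3 over Mettl14 and Rbm15b over Rbm15 are higher in both Dox libraries, and Wtap over Mettl3 and Mettl16 over Mettl3 are lower.

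Zc3h13 and Cbll1 complete the regulatory part. Zc3h13 (ENSMUSG00000022000, chr14:75284373-75344426, plus strand), a zinc finger protein that keeps the complex in the nucleus, was at 19.94 and 17.34 FPKM untreated and at 20.19 and 21.45 FPKM with Dox. The upper untreated library was close to the lower Dox library, and the log2 fold change was 0.15 (95% interval -0.08 to 0.39, adjusted p = 0.392 in limma), with a range of 0.059 to 0.25 when single libraries were left out. Cbll1 (ENSMUSG00000020659, chr12:31484829-31499616, minus strand) was at 13.18 and 12.14 FPKM untreated and at 12.18 and 13.12 FPKM with Dox. These values interleave, and the log2 fold change was -0.001 (95% interval -0.22 to 0.22). An antisense gene, Gm29542, shares 704 exonic bases with Cbll1 and was listed at 0 in all 4 libraries.

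Mettl16 (ENSMUSG00000010554, chr11:74770830-74828525, plus strand) was at 42.25 and 35.6 FPKM untreated and at 41.08 and 40.7 FPKM with Dox. Both Dox values lay inside the untreated range, and the log2 fold change was 0.07 (95% interval -0.17 to 0.31, adjusted p = 0.697 in limma). Its level was close to that of Mettl3 in each library, at 1.05 and 0.937 times untreated and 0.909 and 0.878 times with Dox. Mat2a, whose UTR matches are printed above, was at 87.43 and 87.71 FPKM untreated and at 95.77 and 95 FPKM with Dox. The duplicates of Mat2a agreed closely and both Dox libraries were higher, with a log2 fold change of 0.12 (95% interval -0.03 to 0.27) that did not pass the threshold (adjusted p = 0.297 in limma).

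The shares that single genes took of the summed FPKM of the 9 give the same values on another scale. Wtap took 34.9% to 38.1% in each library. Mettl3 took 11.7% and 11.5% untreated and 14% and 13.3% with Dox. Rbm15 took 5.53% and 5.51% untreated and 4.01% and 4.36% with Dox. Mettl14 stayed within 5.66% to 5.92% and Cbll1 within 3.68% to 3.83% over the 4 libraries. In share, the groups did not overlap for 5 of the 9 genes, Mettl3, Zc3h13, Virma, Rbm15 and Rbm15b. These are also the genes whose FPKM did not overlap, which held for 53.4% of all tested genes. The sum varied little, from 323.78 to 347.6 FPKM, so the shares are no separate evidence.

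The genes whose profile over the 4 libraries was most like that of Mettl3, by the root mean square difference of centred log2(FPKM + 1) values over 4 libraries, were Limd2 (0.00467), Pimreg (0.00615) and Epc1 (0.00709). A difference of at most 0.05 was found for 497 of 11647 tested protein-coding genes.

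Other genes around m6A were read from the same fit, in 6 lists with 45 genes, all tested. Of these 1 was called higher and 0 lower, or 2.22%, beside 9.31% of all tested genes. At an unadjusted p below 0.05 there were 2 higher and 4 lower, where 23.9% of all tested genes stood below this value. The median log2 fold change was -0.02, and the groups did not overlap for 44.4% of the 45 genes, beside 53.4% of all tested genes.

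The 13 readers, proteins that bind the mark, held the 1 called gene. Igf2bp2, a reader known for stabilising its targets, was at 57.7 and 50.36 FPKM untreated and at 75.48 and 85.64 FPKM with Dox. It rose by 0.57 on the log2 scale (95% interval 0.32 to 0.82, adjusted p = 0.0249 in limma). With any one of the 4 libraries left out it no longer passed (log2 fold change 0.47 to 0.66, adjusted p = 0.0587 to 0.146), nor without the filter on low values (0.57, adjusted p = 0.12). Of its relatives, Igf2bp3 had a log2 fold change of -0.28 and Igf2bp1 of 0.30, and neither passed (adjusted p = 0.0809 and 0.198). Ythdf2, the reader that brings marked mRNA to deadenylation, was at 80.37 and 86.7 FPKM untreated and at 74.78 and 79.93 FPKM with Dox (log2 fold change -0.11, 95% interval -0.30 to 0.08). Ythdc1, the nuclear reader, was at 72.05 and 65.71 FPKM untreated and at 63.64 and 67.76 FPKM with Dox, with overlapping groups.

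**Figure D4:**
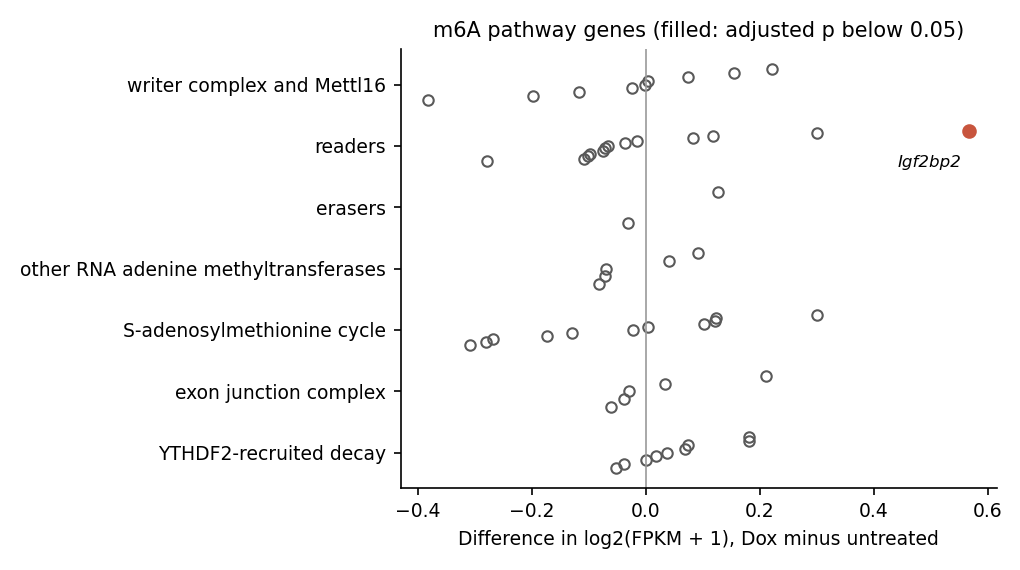
Difference in log2(FPKM + 1) between Dox and untreated libraries for the 9 genes and for the genes of 6 related lists, 1 point per gene, spread vertically within a list only for legibility. Igf2bp2, at 0.57, is the single filled point, and the remaining genes stayed short of the threshold.

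Neither eraser passed the test. Fto was at 62.08 and 58.41 FPKM untreated and at 58.23 and 59.54 FPKM with Dox. Alkbh5 was at 29.19 and 25.23 FPKM untreated and at 27.6 and 32.01 FPKM with Dox. Both erasers had overlapping groups, with log2 fold changes of -0.03 (95% interval -0.20 to 0.13) and 0.13 (95% interval -0.15 to 0.40). The value of Alkbh5 ranged from 0.023 to 0.23 with single libraries left out.

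In the other 4 lists 0 genes were called in limma. The 5 genes of the other RNA adenine methyltransferases had 0 below an unadjusted p of 0.05, and the lowest p was that of Pcif1, which methylates adenosine next to the cap (log2 fold change -0.08, unadjusted p = 0.303). The 11 genes of the S-adenosylmethionine cycle had 0 higher and 3 lower at that level, a share near the 23.9% of all tested genes. Among them were Amd1 and Mtap, with log2 fold changes of -0.31 and -0.27 and adjusted p of 0.0733 and 0.0813. Amd1 encodes the decarboxylase that draws S-adenosylmethionine into polyamine synthesis, and Mtap recycles a by-product of that pathway. Amd1 has a near-identical copy, Amd2, so its value is uncertain. The 5 exon junction complex genes, whose proteins keep m6A away from splice sites, had 0 below that level, with Magohb lowest (log2 fold change 0.21, unadjusted p = 0.0501). The 9 genes of mRNA decay downstream of YTHDF2 had 0 as well, with Upf1 lowest (log2 fold change 0.18, unadjusted p = 0.175).

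The transcripts of the writers themselves were compared for length, exon structure and the letters GGACT, the commonest form of the m6A consensus, searched on the mRNA strand only. For each gene the annotated transcript with the longest coding sequence was used. All 9 members held GGACT, as did 91.3% of the transcripts of 11627 tested genes. The members held a median of 1.09 matches per kb, beside 1.05 over those genes. Wtap had the most per kb, with 5 matches in 2060 nt, and Rbm15 the fewest, with 2 matches in 4343 nt. Exon structure differed widely within the set. Rbm15b has 1 exon, a feature of 2.92% of the genes, and Rbm15 has 2, while Virma has 25. The longest exon of Rbm15b is 6511 nt and that of Rbm15 3459 nt, beside a median of 1356 nt over all genes and 405 nt in Mettl3. These are features of the annotation, and which transcripts were used in the organoids was not measured.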

How the data were processed

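The authors deposited FPKM values, 1 column per library and not pooled. STAR, Cuffdiff and mm10 are named in the submitters' processing notes, without versions. The annotation release and the strand setting are not given in the sources used here, so values of genes with overlapping exons are uncertain. Libraries were grouped by the treatment label. Genes averaging 1 FPKM or more over the libraries entered a limma fit (version 3.58.1, R 4.3.3) of log2(FPKM + 1), with an intensity trend, two-sided, with Benjamini-Hochberg adjustment over 13931 genes at 0.05. This scale understates the change of low genes. Standard errors and intervals are limma's. The fit was also run on simulated libraries, with planted changes larger than those of the members, so that run does not address changes of their size.

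Depth was fitted to values below 0.5 FPKM of single-transcript genes of 450 to 1200 nt. Of these, 77.9% to 79.6% were whole fragments within 0.1, beside 20% by chance. FPKM holds no counts, so no count model was used. Coordinates and transcripts are from GENCODE M21 (GRCm38, the same build as mm10).

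The members and lists were chosen with earlier results of these data known. Named genes are the members, called genes of the lists or else the lowest p, Mat2a, Ythdf2, Ythdc1, both erasers, genes sharing exons with members, the 3 profiles nearest to Mettl3, and Rax with its reporter. Igf2bp1, Igf2bp3 and Mtap were named after their values were seen. One gene of the S-adenosylmethionine cycle list is not reported here but stays in the counts. Alternatives were other pseudocounts, filters, scalings and variance settings, a replicate block and each library left out.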

Additional observations from a re-analysis of the deposited data

How the results depend on the processing

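In each of the 14 alternatives 0 of the 9 writer genes passed the threshold in limma, with a smallest adjusted p of 0.0562, for Rbm15. Its log2 fold change ranged from -0.49 to -0.28 when single libraries were left out, and that of Mettl3 from 0.18 to 0.26. Among 126 values the sign turned in 8, all in genes near 0. With single libraries left out, Mettl14 ranged from -0.085 to 0.038, Wtap from -0.055 to 0.063, Cbll1 from -0.056 to 0.054, Mettl16 from -0.046 to 0.195 and Fto from -0.075 to 0.011. Rescaling to TPM put Cbll1 at 0.020. Over all genes the calls fell from 1297 to 745 without a filter and 821 with a minimum of 5 FPKM, and to between 593 and 697 with single libraries left out, where the lone library is assumed to vary like the other group. The count of other m6A pathway genes, 1 in the main comparison, was 0 without a filter and 0 in each fit with a library left out. A fit with a replicate block gave 1134 calls over all genes, 0 among the writers and 1 among the other pathway genes. The same-numbered deviations had a correlation of -0.043 across genes, which gives no sign that a shared number pairs libraries. The 2 libraries per group limit what could be called.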
